A study of Mus musculus with 6 samples.

Results

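The interferon regulatory factors (IRFs) form a family of transcription factors, and their RNA is described here in acute myeloid leukemia (AML) of mice. The members, taken from the expression table by symbol, were *Irf1*, *Irf2*, *Irf3*, *Irf4*, *Irf5*, *Irf7*, *Irf8* and *Irf9*, 8 of 41128 genes. Of the 8, 7 were among the 9522 tested genes, which are protein-coding and exceeded 0.5 RPKM (mapped reads divided by gene length and library size) in at least 1 mouse. *Irf4* stayed below that level in all 6 mice.

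The leukemias came from KIT+ bone marrow cells of CD45.1 donors that were infected with retroviral vectors and given to irradiated CD45.2 recipients. These were young adult females on a C57BL/6 background at transplantation. Cells of the control cohort, *Hoxa9*/MTV, carried *Hoxa9* and the empty vector MTV (mice 1.1, 1.2 and 1.4), and cells of the other cohort, *Hoxa9*/*IRX3*, carried *Hoxa9* and a human *IRX3* cDNA (mice 3.2, 3.3 and 3.5). Both transgenes were overexpressed from retroviral vectors, so the comparison is of *IRX3* on a *Hoxa9* background. The paper reports later onset of AML in *Hoxa9*/*IRX3* recipients. Time to disease and age at sampling may thus differ between the cohorts along with the transgene, and these cannot be told apart here. KIT+Gr1+ AML cells were sorted by flow cytometry from the marrow of each sick mouse, and 1 library was made per mouse, so n = 3 mice per cohort, and a mouse number names no pair. In the order in which the mice are named above, the libraries held about 8843083, 8305937, 9672522, 8860734, 9803621 and 7979246 reads as recovered from the RPKM. Values below follow the same order, *Hoxa9*/MTV first.

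All IRFs bind DNA through an amino-terminal domain that reads repeats of the bases GAAA. IRF3, IRF5 and IRF7 are held inactive in the cytoplasm until kinases below pathogen sensors phosphorylate them, while IRF9 acts in a complex that carries the interferon signal to its target genes. IRF4 and IRF8 bind mostly together with partners such as PU.1 or BATF and JUN proteins, and IRF8 is needed for monocytes and dendritic cells and restrains neutrophil output.

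*Hoxa9*, the transgene of all 6 leukemias, was at 340, 363 and 174 RPKM in *Hoxa9*/MTV and at 242, 154 and 221 RPKM in *Hoxa9*/*IRX3*. These ranges overlapped (log2 fold change -0.46, limma adjusted p = 0.420, and from -0.80 to -0.27 with 1 mouse left out). The mouse gene *Irx3* was at 0 RPKM in *Hoxa9*/MTV and at 15.1, 0.421 and 0.148 RPKM in *Hoxa9*/*IRX3*, where the reads of a human cDNA need not all align. Among the antigens used for sorting, *Kit* lay between 1.63 and 3.12 RPKM and *Ptprc*, which codes for CD45, between 1.53 and 2.09 RPKM in the 6 mice. The Gr1 antibody binds LY6G and LY6C. *Ly6c2* was at 413, 479, 440, 414, 790 and 844 RPKM, against at most 1.42 RPKM for *Ly6g*. *Itgam*, which codes for Mac1, was at 3.64, 3.60, 3.17, 2.90, 0.690 and 5.34 RPKM and was thus lowest in mouse 3.3. Markers of erythroid cells were close to absent: none of 9 exceeded 0.5 RPKM, 5 were at 0 in every mouse and the highest, *Klf1*, reached 0.303 RPKM. T and NK cell markers behaved alike except for *Nkg7*, with 4 of 12 at 0 in every mouse. Of 12 B and plasma cell markers, *Pax5* and *Ms4a1* were at 0 in every mouse, but 4 exceeded 0.5 RPKM, among them *Xbp1* (58.5 to 218 RPKM), *Cd79b* and *Igll1*, whose values follow below.

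The RefSeq promoter table of build GRCm38.p6 held 11 promoters for the 8 members. Each promoter spans 300 bases. Those of *Irf5*, *Irf8* (first of its 2), *Irf1* (first of its 2), *Irf2* and *Irf7* and that of the interferon-stimulated gene *Ifit1* are printed, a choice made with the values known. Capitals mark motif matches.
Irf5, chr6:29526375-29526674 plus strand: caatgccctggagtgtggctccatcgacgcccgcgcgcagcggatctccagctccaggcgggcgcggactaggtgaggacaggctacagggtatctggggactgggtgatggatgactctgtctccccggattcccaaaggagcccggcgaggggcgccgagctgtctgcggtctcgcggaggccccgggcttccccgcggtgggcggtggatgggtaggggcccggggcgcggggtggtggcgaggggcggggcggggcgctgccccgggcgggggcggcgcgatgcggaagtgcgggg
Irf8, chr8:120736108-120736407 plus strand: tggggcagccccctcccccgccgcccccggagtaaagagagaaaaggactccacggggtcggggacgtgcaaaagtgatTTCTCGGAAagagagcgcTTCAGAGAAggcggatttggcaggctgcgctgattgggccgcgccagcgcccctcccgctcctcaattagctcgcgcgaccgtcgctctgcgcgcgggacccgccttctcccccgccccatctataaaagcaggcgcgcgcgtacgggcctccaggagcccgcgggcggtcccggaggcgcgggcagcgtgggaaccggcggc
Irf1, chr11:53769764-53770063 plus strand: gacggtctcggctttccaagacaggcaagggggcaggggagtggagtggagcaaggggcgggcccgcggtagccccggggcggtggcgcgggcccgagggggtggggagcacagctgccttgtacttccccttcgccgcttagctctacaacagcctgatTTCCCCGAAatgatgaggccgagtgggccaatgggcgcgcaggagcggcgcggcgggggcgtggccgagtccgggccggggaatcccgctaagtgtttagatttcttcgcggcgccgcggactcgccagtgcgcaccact
Irf2, chr8:46739495-46739794 plus strand: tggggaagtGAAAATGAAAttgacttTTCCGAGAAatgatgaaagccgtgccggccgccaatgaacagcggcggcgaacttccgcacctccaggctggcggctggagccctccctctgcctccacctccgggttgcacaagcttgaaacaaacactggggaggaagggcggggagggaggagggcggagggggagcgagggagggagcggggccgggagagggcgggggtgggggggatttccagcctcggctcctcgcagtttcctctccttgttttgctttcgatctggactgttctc
Irf7, chr7:141266375-141266674 minus strand: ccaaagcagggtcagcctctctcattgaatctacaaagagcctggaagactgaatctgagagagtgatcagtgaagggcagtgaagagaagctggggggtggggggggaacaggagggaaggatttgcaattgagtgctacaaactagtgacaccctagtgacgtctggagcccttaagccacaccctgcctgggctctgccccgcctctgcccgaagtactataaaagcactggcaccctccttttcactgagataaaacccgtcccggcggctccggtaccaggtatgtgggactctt
Ifit1, chr19:34640639-34640938 plus strand: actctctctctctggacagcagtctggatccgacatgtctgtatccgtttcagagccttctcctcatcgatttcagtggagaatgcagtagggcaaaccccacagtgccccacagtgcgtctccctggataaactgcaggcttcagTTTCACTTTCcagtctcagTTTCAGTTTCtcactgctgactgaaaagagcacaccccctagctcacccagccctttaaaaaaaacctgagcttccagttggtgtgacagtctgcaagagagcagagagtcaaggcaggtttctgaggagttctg
The motifs searched on both strands were the interferon response element (GAAA, any 2 bases, GAAA), TTCNNNGAA (gamma-activated sequence, the same on both strands) and GAGGAAGT (PU.1). The interferon response element occurred in 1 of the 11 family promoters, that of *Irf2* (bases 10 to 19), against 3.44% of all 32851 promoters. TTCNNNGAA occurred in 3 of the 11 (27.3%, against 8.30% of all): in *Irf1* at bases 161 to 169, in *Irf2* at bases 27 to 35 and in *Irf8* at bases 80 to 88 and 98 to 106. No family promoter matched GAGGAAGT, which 3.20% of all promoters did. No 2 matches overlapped, and the promoter of *Irf5* held none. A match is a description, not a site or a cause.

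Of the 7 tested members, 1 passed both limits of the limma test, an adjusted p under 0.05 and a change of at least 2-fold, and it was lower in *Hoxa9*/*IRX3*. Among all 9522 tested genes 3.13% passed (1.10% higher and 2.03% lower in *Hoxa9*/*IRX3*). Cohorts did not overlap for the same member only, where 33.7% of tested genes did not (12.2% higher, 21.6% lower), so the family as a whole held no excess of separated genes. The median log2 fold change of the 7 members was -0.16, beside -0.06 for all tested genes, and without mouse 3.3 it was -0.30, beside -0.08.

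**Figure D1:**
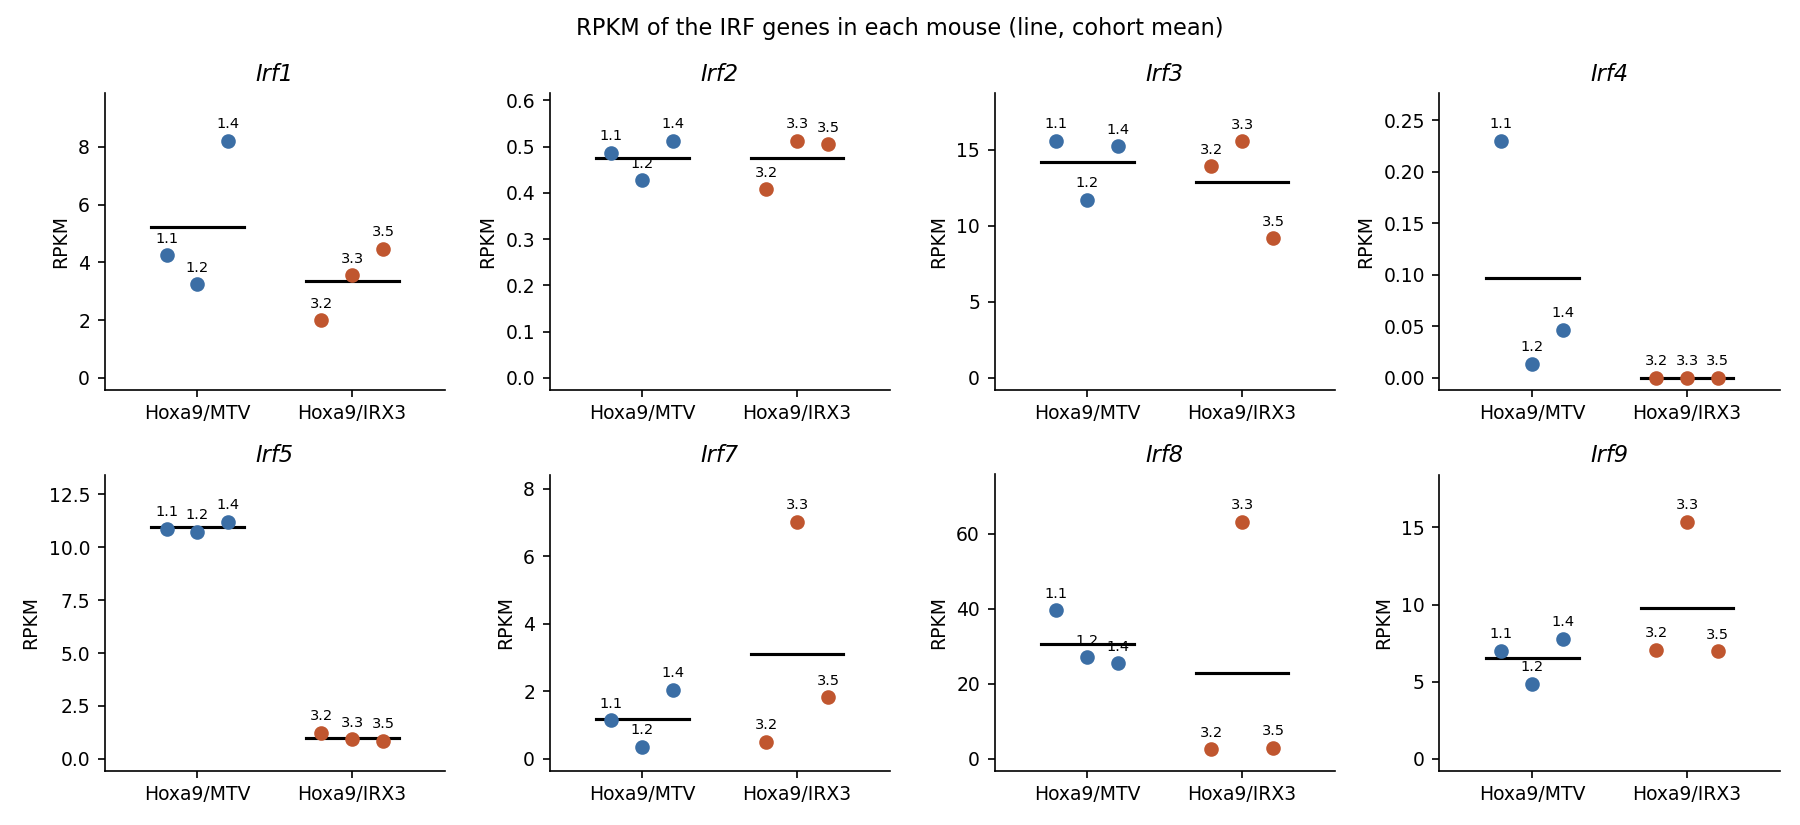
RPKM of each IRF family member in every mouse. Each point is the library of 1 mouse, the line is the cohort mean, and the axis is linear and begins at 0.

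*Irf5*, which acts below Toll-like receptors in myeloid cells, was the member that separated the cohorts (ENSMUSG00000029771, GRCm38 chromosome 6, 29526625–29541871). It was at 10.9, 10.7 and 11.2 RPKM in *Hoxa9*/MTV (1467, 1360 and 1652 reads) and at 1.24, 0.923 and 0.863 RPKM in *Hoxa9*/*IRX3* (167, 138 and 105 reads). All 3 control mice were high and nearly equal, all 3 *IRX3* mice were low, and the ranges lay far apart. Mean ± SD was 10.9 ± 0.237 RPKM against 1.01 ± 0.200 RPKM, a ratio of 10.9, and the log2 fold change was -2.93 (standard error 0.13, 95% interval -3.24 to -2.62, adjusted p = 0.000503). Within *Hoxa9*/MTV the SD of log2 values was 0.03, and 94.1% of tested genes varied more. Within *Hoxa9*/*IRX3* it was 0.19, close to the median of 0.24. Each of 16 alternative analyses, of which 6 left out 1 mouse, kept *Irf5* past both limits, with log2 fold changes from -3.45 to -2.58 and adjusted p up to 0.0122. Per length of exon, *Irf5* stood above 92.9% of tested genes in *Hoxa9*/MTV (57.4 ± 1.24 RPKM) and above 27.0% in *Hoxa9*/*IRX3* (5.29 ± 1.05 RPKM).

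*Irf8*, the regulator of monocyte and dendritic cell fate (ENSMUSG00000041515, GRCm38 chromosome 8, 120736358–120756694), divided the *IRX3* mice among themselves. Its values were 39.6, 27.0 and 25.5 RPKM in *Hoxa9*/MTV and 2.61, 63.1 and 2.98 RPKM in *Hoxa9*/*IRX3*. Mice 3.2 and 3.5 were below every control mouse and mouse 3.3 was above every control mouse, so the cohorts overlapped. Mouse 3.3 exceeded mouse 3.2 24.2-fold, and the SD of log2 values in *Hoxa9*/*IRX3* was 2.47, exceeded by 0.14% of tested genes. The comparison of all 6 mice did not pass (log2 fold change -1.79, standard error 1.13, 95% interval -4.49 to 0.90, adjusted p = 0.367). Leaving out mouse 3.3 moved *Irf8* past both limits (log2 fold change -3.22, adjusted p = 0.00551), while the other 5 omissions gave -1.91 to -1.04 without a call. *Csf1r*, the receptor of the macrophage growth factor, had the same division: 5.82, 4.77 and 5.94 RPKM in *Hoxa9*/MTV and 0.790, 6.43 and 0.552 RPKM in *Hoxa9*/*IRX3*. Mouse 3.3 was again the highest of the 6 and mice 3.2 and 3.5 the lowest, and without mouse 3.3 *Csf1r* passed both limits (log2 fold change -2.36, adjusted p = 0.00507). Log2 values of *Irf8* and *Csf1r* had a Pearson r of 0.98 over the 6 mice, and of 0.98 over the 5 without mouse 3.3. *Csf1r* was picked after its values were seen. Of 11 tested monocyte and macrophage markers, 2 were highest in mouse 3.3. *Ms4a6c* (0.941, 0.199 and 1.26 RPKM in *Hoxa9*/*IRX3*), *Ccr2* (4.99, 3.69 and 6.48) and *Cd14* (50.8, 2.45 and 10.7) were lowest there among the *IRX3* mice. *Cd68* (13.1, 18.3 and 6.72) was highest there among them. *Irf5* was low in mouse 3.3 as in the other 2 *IRX3* mice, unlike *Irf8*. The log2 values of *Irf5* and *Irf8* had r = 0.50 over 6 mice and 0.98 without mouse 3.3. Without that mouse, high control mice and low *IRX3* mice remain. This r, like that of *Csf1r* without mouse 3.3, thus largely restates the difference between cohorts. Within *Hoxa9*/MTV, *Irf5* was highest in mouse 1.4, where *Irf8* was lowest.

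*Irf4*, the closest relative of *Irf8* (ENSMUSG00000021356, GRCm38 chromosome 13, 30749226–30766976), was scarce: 0.230, 0.0136 and 0.0467 RPKM in *Hoxa9*/MTV (36, 2 and 8 reads) and 0 reads in all 3 *Hoxa9*/*IRX3* mice. With a floor of 3 reads per library, the *Hoxa9*/MTV mean was at least 5.05-fold higher, but mouse 1.1 carried most of it, and without that mouse the bound was at least 1.57-fold. The gene was not tested. Counted over all 8 members with no filter on low values, the cohorts did not overlap for 2, *Irf4* and *Irf5*, where 29.1% of the 14755 protein-coding genes above 0 in any mouse did not.

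*Irf1*, which activates interferon-stimulated genes and is itself induced through gamma-activated sequences (ENSMUSG00000018899, GRCm38 chromosome 11, 53770014–53778374), was at 4.25, 3.24 and 8.21 RPKM in *Hoxa9*/MTV and at 2.00, 3.56 and 4.47 RPKM in *Hoxa9*/*IRX3*. Mouse 1.4 was highest, mouse 3.2 was lowest and the remaining 4 mixed across cohorts. The log2 fold change was -0.54 (95% interval -1.44 to 0.36, adjusted p = 0.414), or -0.19 without mouse 1.4. *Irf2*, which occupies the same elements and counters IRF1 (ENSMUSG00000031627, GRCm38 chromosome 8, 46739732–46847458), was at 0.487, 0.427 and 0.513 RPKM in *Hoxa9*/MTV and at 0.408, 0.512 and 0.505 RPKM in *Hoxa9*/*IRX3*. These 6 values, from 382 to 541 reads, overlapped fully. *Irf2* was the flattest member: its 95% interval of -0.30 to 0.30 lay inside 2-fold at both ends (adjusted p = 0.995).

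*Irf3*, the constitutive member that drives interferon beta (ENSMUSG00000003184, GRCm38 chromosome 7, 44997648–45002848), was at 15.6, 11.7 and 15.2 RPKM in *Hoxa9*/MTV and at 13.9, 15.6 and 9.16 RPKM in *Hoxa9*/*IRX3*. The cohorts overlapped, with mouse 3.5 lowest. Its log2 fold change was -0.16 (95% interval -0.70 to 0.39, adjusted p = 0.707), again short of 2-fold at both ends.

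*Irf7*, the inducible amplifier of type I interferon (ENSMUSG00000025498, GRCm38 chromosome 7, 141262706–141266481), was at 1.14, 0.351 and 2.05 RPKM in *Hoxa9*/MTV and at 0.508, 7.02 and 1.83 RPKM in *Hoxa9*/*IRX3* (38, 11, 75, 17, 260 and 55 reads). Mouse 3.3 stood above the other 5, which overlapped across cohorts. *Irf9*, the DNA-binding subunit of the interferon complex ISGF3 (ENSMUSG00000002325, GRCm38 chromosome 14, 55603571–55610030), was at 7.002, 4.86 and 7.79 RPKM in *Hoxa9*/MTV and at 7.06, 15.4 and 6.98 RPKM in *Hoxa9*/*IRX3*. Here too mouse 3.3 was alone at the top and the other 2 *IRX3* mice lay inside the control range. Mouse 3.3 exceeded the mean of the other 2 *IRX3* mice 6.02-fold for *Irf7* and 2.19-fold for *Irf9*. The log2 fold change of *Irf7* was 0.77 (95% interval -1.03 to 2.57, adjusted p = 0.561) and 0.00 without mouse 3.3. That of *Irf9* was 0.48 (95% interval -0.32 to 1.27, adjusted p = 0.415) and 0.12 without it. Over the 6 mice the log2 values of *Irf7* and *Irf9* had r = 0.93, or 0.74 without mouse 3.3. Of the 7 tested members, 3 were highest in mouse 3.3 (*Irf7*, *Irf8* and *Irf9*) and 3 in mouse 1.4 (*Irf1*, *Irf2* and *Irf5*), against 19.1% and 20.1% of all tested genes. The lead of mouse 1.4 was slight for *Irf2* (0.5125 RPKM, against 0.5123 in mouse 3.3) and for *Irf5* (11.2 RPKM, against 10.9 in mouse 1.1).

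On the scale of exon length, on which genes can be compared, the order in *Hoxa9*/MTV was *Irf8* (88.5 ± 22.2 RPKM), *Irf5* (57.4 ± 1.24), *Irf3* (21.4 ± 3.22), *Irf1* (11.0 ± 5.53), *Irf9* (7.86 ± 1.82), *Irf2* (6.93 ± 0.640), *Irf7* (1.18 ± 0.852) and *Irf4* (0.350 ± 0.422). In this order *Irf1* overlapped with *Irf9*, *Irf9* with *Irf2* and *Irf7* with *Irf4*, and the other neighbors did not overlap. In *Hoxa9*/*IRX3* the order was *Irf8* (66.0 ± 100), *Irf3* (19.4 ± 5.01), *Irf9* (11.8 ± 5.78), *Irf1* (7.03 ± 2.63), *Irf2* (6.92 ± 0.852), *Irf5* (5.29 ± 1.05) and *Irf7* (3.12 ± 3.44), and every neighbor overlapped with the next. *Irf5* thus went from rank 2 to rank 6, and *Irf8* kept rank 1 only through mouse 3.3. The annotated exons of *Irf7* cover its whole span, so its exon scale equals its gene scale.

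**Figure D2:**
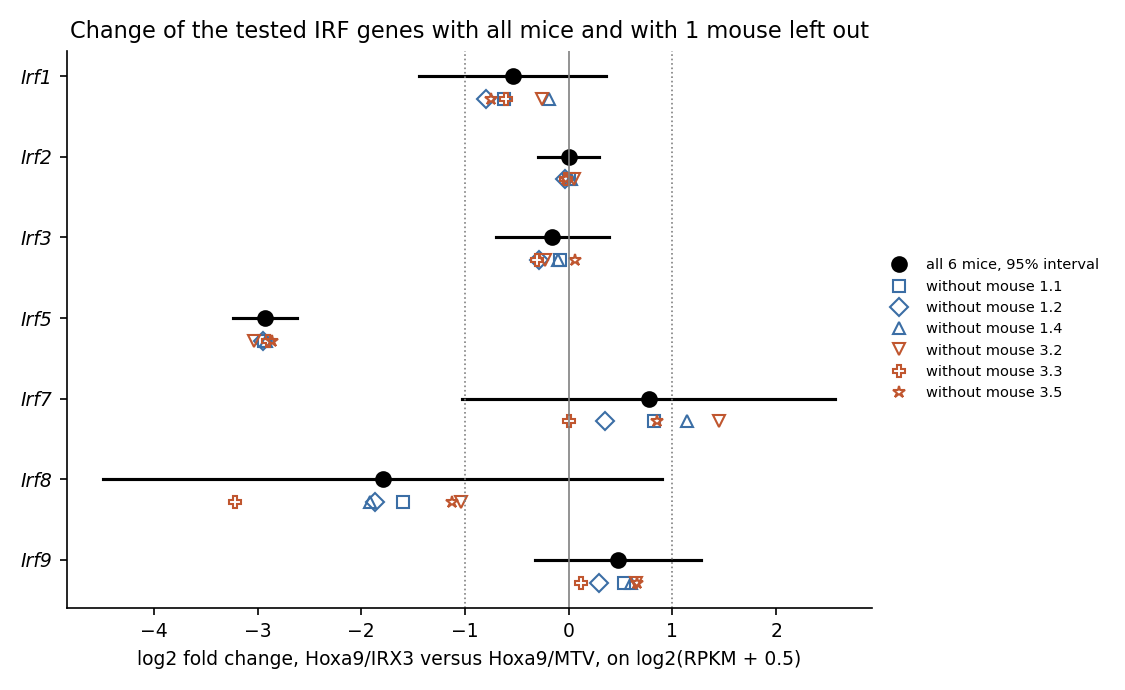
Log2 fold change with 95% interval for the 7 tested IRF members, with all 6 mice and with each mouse left out. Positive values are higher in *Hoxa9*/*IRX3*.

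**Figure D3:**
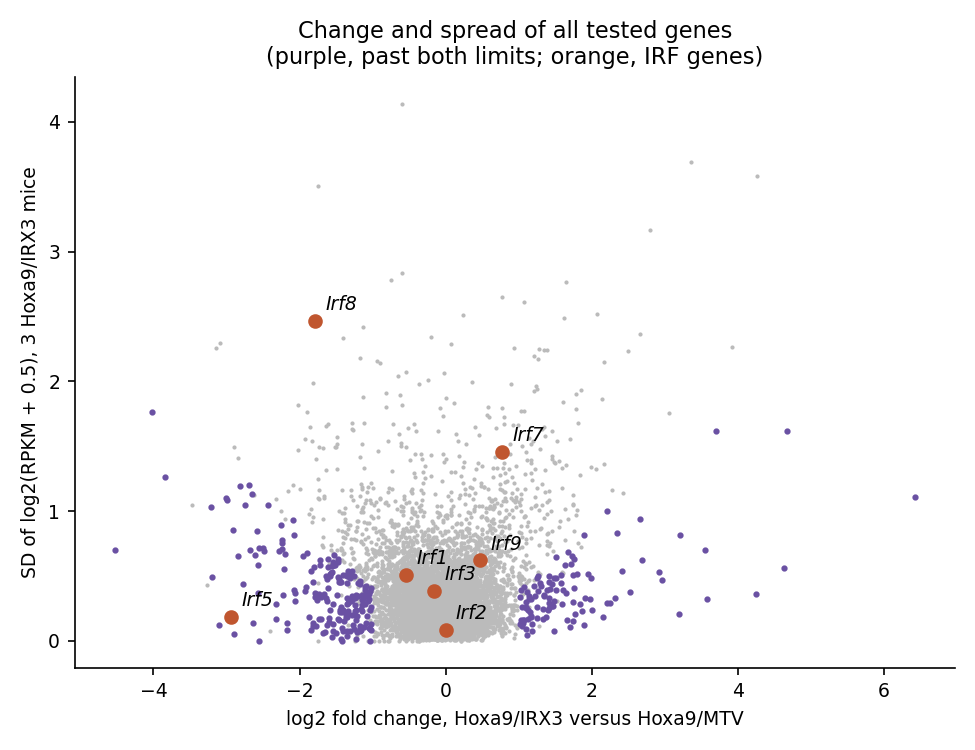
Log2 fold change of each tested gene against the SD of its log2 values among the 3 *Hoxa9*/*IRX3* mice, with the tested IRF members named and genes past both limits in purple.

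Partners that bind DNA with IRFs, or bind IRFs directly, were listed next: 14 genes, 11 tested. None passed both limits in limma, 3 had an unadjusted p under 0.05, voom on recovered reads also called 0, and 3 did not overlap between cohorts (1 higher, 2 lower). Among all 9522 tested genes 3.13% passed both limits and 2315 had an unadjusted limma p under 0.05. Cohorts did not overlap for 33.7% of them (12.2% higher, 21.6% lower). *Spi1*, which codes for PU.1, was at 7.55, 7.30 and 8.58 RPKM in *Hoxa9*/MTV and at 7.94, 2.71 and 5.86 RPKM in *Hoxa9*/*IRX3*. The cohorts overlapped (log2 fold change -0.57, adjusted p = 0.344, and -0.18 without mouse 3.3 or -0.88 without mouse 3.2), and mouse 3.3, which had the most *Irf8*, had the least *Spi1*. *Jun* was at 157, 305 and 228 RPKM in *Hoxa9*/MTV and at 52.0, 88.7 and 23.9 RPKM in *Hoxa9*/*IRX3*. All control mice lay above all *IRX3* mice, yet the adjusted p was 0.0549 (log2 fold change -2.20, standard error 0.49). Without mouse 3.3 *Jun* passed both limits (-2.63, adjusted p = 0.0321). *Jund* was at 55.8, 85.7 and 91.5 RPKM in *Hoxa9*/MTV and at 47.9, 26.8 and 25.2 RPKM in *Hoxa9*/*IRX3*, again without overlap (log2 fold change -1.24, adjusted p = 0.0711). Without mouse 3.2 it passed both limits (-1.53, adjusted p = 0.0279). *Junb* overlapped (-0.78, adjusted p = 0.536, and from -1.24 to -0.09 with 1 mouse left out). *Batf*, the partner of IRF4 and IRF8 in lymphoid and dendritic cells, lay between 0.532 and 1.07 RPKM (log2 fold change 0.24, adjusted p = 0.438), and *Batf2*, *Batf3* and *Spib* stayed under 0.5 RPKM. *Etv6* was flat, at 2.43, 2.37 and 2.49 RPKM against 2.503, 2.31 and 2.501 RPKM (0.01, adjusted p = 0.981). *Irf2bp2*, a corepressor that binds IRF2, was at 138, 120, 142, 137, 122 and 88.5 RPKM (-0.22, adjusted p = 0.516), and *Irf2bp1* and *Irf2bpl* did not pass either (0.18 and -0.47).

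The sensors, adaptors and kinases that activate IRF3, IRF5 and IRF7 made a list of 26 genes, 24 of them tested. Of these, 3 passed both limits (3.13% of all tested genes did), all lower in *Hoxa9*/*IRX3*: *Tlr9*, *Unc93b1* and *Tlr2*. *Tlr9*, a receptor for DNA in endosomes that signals to IRF5 and IRF7, was at 6.83, 3.20 and 5.28 RPKM in *Hoxa9*/MTV and at 0.105, 0.595 and 0.234 RPKM in *Hoxa9*/*IRX3*. No *IRX3* mouse reached the lowest control mouse. The ratio of means was 16.4 and the log2 fold change was -2.78 (standard error 0.31, adjusted p = 0.00854), with an adjusted p of 0.0616 without mouse 1.4. *Unc93b1*, the protein that carries TLR9 and other nucleic acid receptors to endosomes, was at 20.8, 22.3 and 20.5 RPKM in *Hoxa9*/MTV and at 6.94, 7.75 and 4.63 RPKM in *Hoxa9*/*IRX3*. The cohorts lay apart, with mouse 3.5 lowest. It fell by a log2 of 1.67 (standard error 0.20, adjusted p = 0.00956), and the adjusted p rose to 0.0553, 0.0655 and 0.0637 when mouse 1.1, 1.2 or 1.4 was left out. *Tlr2* fell by a log2 of 1.64 (adjusted p = 0.0376) and passed in 1 of the 6 fits with a mouse left out, the 1 without mouse 3.2. Past the adjusted p but under 2-fold on the log2(RPKM + 0.5) scale were *Ikbkb*, the kinase that phosphorylates IRF5, and *Ddx58*, which codes for the RNA sensor RIG-I. *Ikbkb* was at 3.70, 3.64, 3.89, 1.96, 2.42 and 1.61 RPKM (log2 fold change -0.78, adjusted p = 0.0334). *Ddx58* was at 0.207, 0.150, 0.181, 0.826, 0.521 and 0.987 RPKM, a ratio of means of 4.34 (log2 fold change 0.90 on that scale, adjusted p = 0.0378), and without mouse 3.3 it passed both limits (1.05, adjusted p = 0.0156). *Tlr4*, a receptor at the cell surface, was at 0.415, 0.284, 0.521, 2.50, 0.839 and 1.29 RPKM, higher in all *IRX3* mice (1.10, adjusted p = 0.0832), and it too passed both limits without mouse 3.3 (1.36, adjusted p = 0.0433). Cohorts did not overlap for 12 of the 24 genes, 9 lower and 3 higher (33.7% of all tested genes, 21.6% lower and 12.2% higher), and the median log2 fold change was -0.18. *Irak1*, the most abundant of the list by gene span, was at 25.5, 26.2, 26.1, 23.7, 20.3 and 17.7 RPKM (-0.34, adjusted p = 0.224).

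Interferon genes themselves gave no reads: all 21 genes of type I, II and III interferons were at 0 RPKM in all 6 mice. Reads shared between near-identical interferon alpha genes may have been dropped before the table was made. Of 11 genes for interferon receptors and the kinases and STATs below them, all tested, none passed both limits in limma, 6 had an unadjusted p under 0.05, and voom called 0. Cohorts did not overlap for 7 (5 lower, 2 higher), where 33.7% of all tested genes did not (21.6% lower, 12.2% higher). Of all 9522 tested genes, 3.13% passed both limits and 2315 had an unadjusted limma p under 0.05. *Ifnar1*, which with *Ifnar2* forms the type I receptor, was at 6.79, 7.15 and 7.23 RPKM in *Hoxa9*/MTV and at 5.11, 5.88 and 4.11 RPKM in *Hoxa9*/*IRX3*. *Ifnar2* was at 7.72, 6.63 and 6.53 RPKM against 5.42, 5.23 and 4.43 RPKM. Both separated the cohorts by less than 2-fold (log2 fold changes -0.46 and -0.43, adjusted p = 0.124 and 0.113). *Stat2* was at 2.69, 2.21, 2.27, 2.31, 3.59 and 1.99 RPKM, highest in mouse 3.3 as *Irf9* was (0.08, adjusted p = 0.825).

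Interferon-stimulated genes, the output of the family, were listed as 42 genes, 36 of them tested. No gene passed both limits in limma, where 3.13% of all tested genes did, and voom called 1, *Ddx58*. The unadjusted limma p was under 0.05 for 11 of the 36, against 2315 of all 9522 tested genes. Cohorts did not overlap for 11 of the 36, all higher in *Hoxa9*/*IRX3*, where 12.2% of all tested genes were. The median log2 fold change was 0.49, 31 of 36 were positive, and without mouse 3.3 the median was 0.23, beside -0.08 for all tested genes. Mouse 3.3 held the highest value of 23 of the 36 (63.9%, against 19.1% of all tested genes), followed by mice 3.5 with 6 and 3.2 with 5. Among the *IRX3* mice alone, mouse 3.3 was highest for 24 of 36 (66.7%, against 38.3% of all tested genes), with a median log2 difference of 0.69 from the mean of the other 2. The summed level of all 42 listed genes was 131, 132 and 150 RPKM in *Hoxa9*/MTV and 111, 200 and 137 RPKM in *Hoxa9*/*IRX3*. The most abundant gene by gene span was *Psmb8*. *Ifit1* was at 0.0124, 0.0790, 0.0226, 0.0617, 1.07 and 0.192 RPKM. *Oasl2* was at 0.185, 0.157, 0.223, 0.00738, 1.81 and 0.442 RPKM, and *Zbp1* at 0.119, 0.0489, 0.185, 0.0367, 1.48 and 0.112 RPKM. In each of these 3, mouse 3.3 stood above the other 5. *Mx1* was at 0.634, 0.614, 0.840, 0.0427, 1.23 and 0.0316 RPKM, again highest in mouse 3.3, but lowest in mice 3.2 and 3.5 as *Irf8* was. Without mouse 3.3 it passed both limits as lower in *Hoxa9*/*IRX3* (log2 fold change -1.15, adjusted p = 0.0163). *Cxcl10* differed in that mice 3.3 and 3.5 were both high: 0.1004, 0.107, 0.0459, 0.351, 2.76 and 2.17 RPKM, with 2, 2 and 1 reads in the control mice. This is at least 11.8-fold higher with the floor of 3 reads, without a call (log2 fold change 1.74, adjusted p = 0.0895). Without mouse 3.2, *Cxcl10* (2.34, adjusted p = 0.00600), *Isg20* (1.36, adjusted p = 0.0375) and *Ifit2* (1.12, adjusted p = 0.0370) passed both limits as higher.

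The promoter table held 37 promoters of these genes, and the interferon response element occurred in 20 (54.1%, against 3.44% of all promoters). The genes were listed as interferon-stimulated and not drawn at random, so the share describes the list. Of tested genes highest in mouse 3.3, 12 of 21 promoters had a match (57.1%), and of those highest in another mouse, 6 of 12 (50.0%). The difference between these shares was not tested. The printed *Ifit1* promoter had 2 matches on the minus strand, at bases 147 to 156 and 166 to 175.

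**Figure D4:**
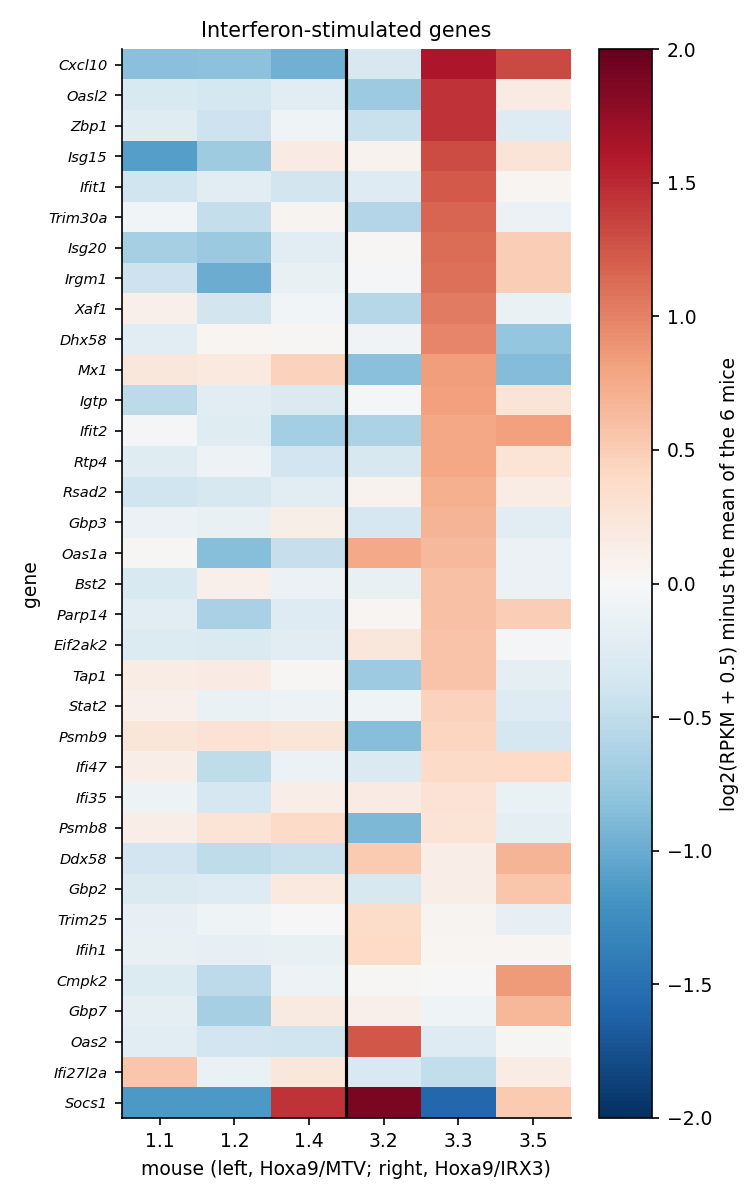
Log2 level of tested interferon-stimulated genes in every mouse relative to the mean of that gene over the 6 mice. The line separates *Hoxa9*/MTV (left) from *Hoxa9*/*IRX3* (right), and genes are sorted by mouse 3.3.

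Direct targets of IRF8 known from myeloid or B cells were listed as 19 genes, 12 of them tested. Of these, 3 passed both limits, all lower in *Hoxa9*/*IRX3* as 2.03% of all tested genes were: *Cd68*, *Ctss* and *Klf4*. *Cd68*, a lysosomal glycoprotein of macrophages, was at 67.9, 87.3 and 80.1 RPKM in *Hoxa9*/MTV and at 13.1, 18.3 and 6.72 RPKM in *Hoxa9*/*IRX3*. Control mice were all high and *IRX3* mice all low, mouse 3.3 included (log2 fold change -2.68, standard error 0.35, adjusted p = 0.0135). *Ctss*, which codes for cathepsin S, was at 1.00, 1.11 and 1.64 RPKM in *Hoxa9*/MTV and at 0.263, 0.0895 and 0.0592 RPKM in *Hoxa9*/*IRX3*. The cohorts did not overlap, with means 9.09-fold apart (-1.45, standard error 0.20, adjusted p = 0.0147). *Klf4*, a factor that IRF8 induces on the way to monocytes, was at 9.15, 5.02 and 11.0 RPKM in *Hoxa9*/MTV and at 2.16, 1.76 and 0.471 RPKM in *Hoxa9*/*IRX3*. It also kept the cohorts apart (-2.24, adjusted p = 0.0391). Leaving out 1 control mouse raised the adjusted p past 0.05 for each of the 3: to 0.0570, 0.0769 and 0.0803 for *Cd68*, to 0.0553, 0.0769 and 0.0712 for *Ctss*, and to 0.141, 0.0968 and 0.156 for *Klf4* (without mice 1.1, 1.2 and 1.4). *Klf4* was also lost without mouse 3.3 (0.0583) or 3.5 (0.0518). Cohorts did not overlap for 7 of the 12, all lower (21.6% of all tested genes were lower without overlap), and the median log2 fold change was -0.83 with all mice and -0.76 without mouse 3.3. Over all 6 mice only *Bcl6* was highest in mouse 3.3. Among the *IRX3* mice alone, mouse 3.3 was highest for 6 of the 12 (50.0%, against 38.3% of all tested genes), among them *Bcl6*, *Cd68* and *Cebpa*, with a median log2 difference of 0.26 over the 12. *Cebpa*, the most abundant of the list, overlapped (0.16, adjusted p = 0.727).

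Markers of cell types that depend on IRFs were counted in the same way, beside the 3.13% of all tested genes that passed both limits (2.03% lower, 1.10% higher). Of 11 tested monocyte and macrophage markers, 4 passed both limits, all lower (*Ms4a6c*, *Ccr2*, *Cd68* and *Klf4*), against 2.03% of all. *Cd68* and *Klf4* are also in the list of IRF8 targets, so the counts of these lists are not separate. *Ccr2* lost its call without mouse 1.1 (adjusted p = 0.0530) or 1.4 (0.0549). The summed level of the list was 810, 882 and 799 RPKM in *Hoxa9*/MTV and 587, 982 and 1010 RPKM in *Hoxa9*/*IRX3*, dominated by *Ly6c2*, the most abundant, which overlapped (0.56, adjusted p = 0.278). Of 9 tested dendritic cell and major histocompatibility complex class II markers, 2 passed, both lower (2.03% of all): *Flt3* and *H2-DMa*. *Flt3* was at 0.999, 0.604 and 0.883 RPKM in *Hoxa9*/MTV and at 0.00162, 0.0249 and 0.0252 RPKM in *Hoxa9*/*IRX3*. All control mice were far above all *IRX3* mice, with a ratio of means of 48.2 (log2 fold change -1.35, adjusted p = 0.0102), and the adjusted p was 0.0642 without mouse 1.1 and 0.0712 without mouse 1.4. *H2-DMa* was at 18.5, 20.2 and 24.3 RPKM against 4.52, 6.71 and 9.85 RPKM, also apart (-1.57, adjusted p = 0.0293). It passed in 2 of the 6 fits with a mouse left out, those without mouse 3.2 and without mouse 3.5, and reached an adjusted p of 0.136 without mouse 1.4. The summed level of this list was 44.0, 52.1, 74.9, 22.6, 32.8 and 36.9 RPKM. Of 16 neutrophil markers, all tested, 3 passed, all higher (1.10% of all): *Elane*, *Gfi1* and *Ly6g*. Of the 16, 13 had a positive and 3 a negative log2 fold change, *Ltf* (-0.99), *Mmp8* (-0.75) and *Ngp* (-0.13), none of them called. The list summed to 3506, 4667 and 3187 RPKM in *Hoxa9*/MTV and 7615, 7012 and 7743 RPKM in *Hoxa9*/*IRX3*, without overlap. *Elane*, the most abundant, was at 715, 1053 and 614 RPKM in *Hoxa9*/MTV and at 3324, 3332 and 2237 RPKM in *Hoxa9*/*IRX3*. No control mouse reached the lowest *IRX3* mouse (1.91, standard error 0.26, adjusted p = 0.0144), and *Elane* lost its call without mouse 1.1 (0.0739) or 1.4 (0.0812). *Ly6g*, with a ratio of means of 10.02 that rests on 5, 4 and 2 reads in the control mice, lost its call without mouse 1.1, 1.2 or 1.4 (0.0817, 0.0984 and 0.102). Of 4 tested B and plasma cell markers 1 passed as lower (2.03% of all), *Cd79b*, at 6.11, 7.07, 7.01, 0.330, 0.149 and 2.31 RPKM, means 7.25-fold apart (-2.65, adjusted p = 0.0383). It held only in the fit without mouse 3.5 of the 6, and the adjusted p reached 0.155 without mouse 1.2. The other 3 tested markers of that list, *Igll1*, *Vpreb1* and *Xbp1*, were higher in *Hoxa9*/*IRX3* without overlap and not called. *Igll1* was at 0.102, 0.0726, 0.0312, 1.19, 9.11 and 38.4 RPKM, with 3, 2 and 1 reads in the control mice. This is at least 160-fold higher with the floor of 3 reads, or at least 50.7-fold without mouse 3.5 (log2 fold change 3.92, adjusted p = 0.0776), and passed both limits without mouse 3.2 (5.09, adjusted p = 0.0140). *Xbp1*, the most abundant of the list, had a log2 fold change of 1.21 (adjusted p = 0.0537) and passed both limits without mouse 3.3 (1.47, adjusted p = 0.0252). *Nkg7* was the only tested T and NK cell marker and was not called (limma, unadjusted p under 0.05 for 0; 1.62, adjusted p = 0.415), at 32.9, 32.8, 22.6, 100, 14.9 and 482 RPKM, highest in mouse 3.5 (0.41 without it). In bulk samples fewer cells of a type and less RNA per cell cannot be told apart, and the part of the markers in the IRF result was not tested.

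**Figure D5:**
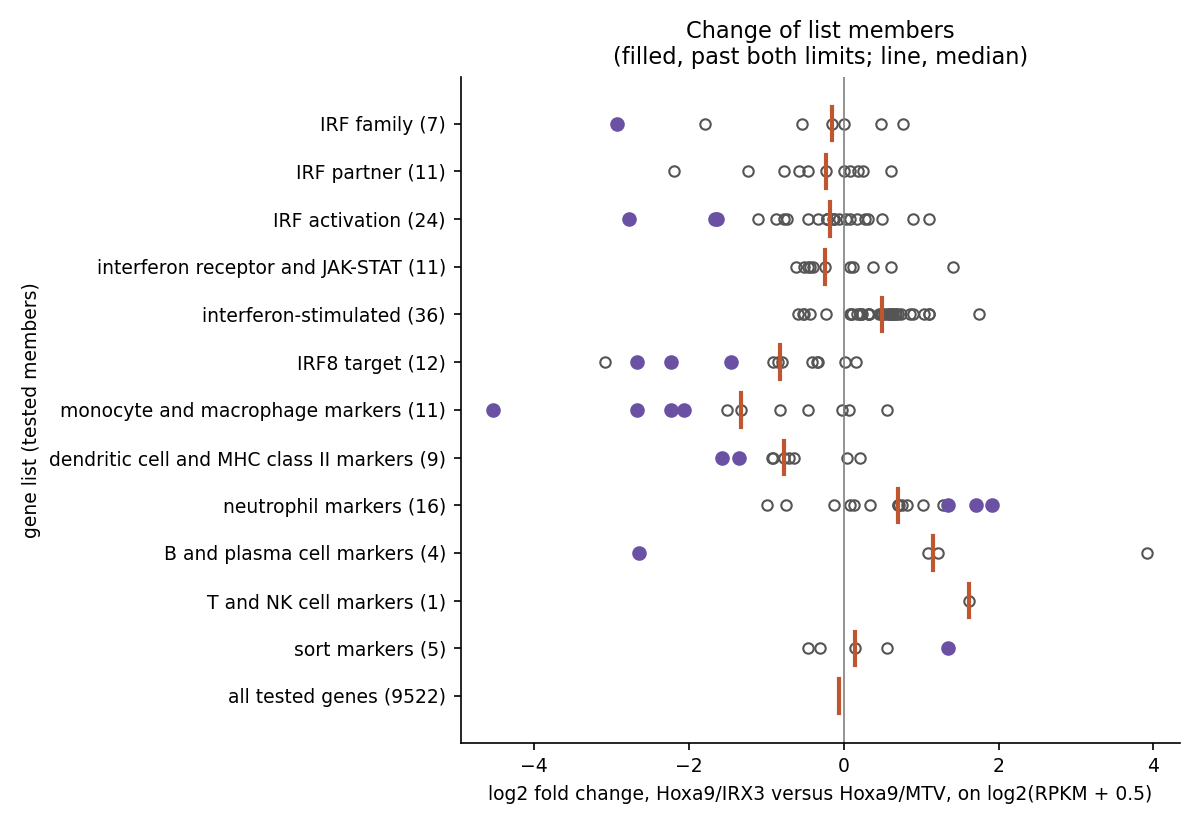
Log2 fold change of each tested gene in the lists used here, *Hoxa9*/*IRX3* against *Hoxa9*/MTV, with the median of each list as a line and genes past both limits filled.

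Likeness of profile was measured as Pearson r of log2 values over the 6 mice, against the other tested genes whose mean reached 1 RPKM (6968, or 6969 for *Irf2*), and says nothing on shared function. Closest to *Irf5* were *Glrx2*, *Ubxn7* (r = 0.996 each) and *Rnase6* (0.995). *Rnase6*, a ribonuclease of myeloid cells, was at 2.75, 2.17 and 2.42 RPKM in *Hoxa9*/MTV (201, 149 and 193 reads) and at 0 reads in all 3 *Hoxa9*/*IRX3* mice. This is at least 59.5-fold lower with the floor of 3 reads, and it passed both limits with all mice (-2.55, adjusted p = 0.000630) and in all 6 fits with 1 left out. *Glrx2* and *Ubxn7* changed by less than 2-fold (-0.53 and -0.66, adjusted p = 0.0351 and 0.0181). Closest to *Irf8* were *Idnk* (r = 0.992), *H2-M3* (0.988) and *Cep55* (0.984). *H2-M3*, which codes for a nonclassical class I molecule, was at 10.7, 9.68, 8.02, 3.18, 11.9 and 4.06 RPKM, with mice 3.2 and 3.5 low and mouse 3.3 high as for *Irf8* (-0.74, adjusted p = 0.343, and -0.40 without mouse 3.2). Without mouse 3.3 it passed both limits (-1.28, adjusted p = 0.0233). Closest to *Irf9* were *Adam17* (0.997), *2010107E04Rik* (0.991) and *Adar* (0.986). *Adar*, an interferon-induced RNA editor outside the lists, was at 3.14, 2.43, 3.04, 2.96, 5.16 and 2.88 RPKM, highest in mouse 3.3 (0.27, adjusted p = 0.495). Closest to *Irf7* were *Azin1* (0.993), *Jrk* (0.988) and *Zdhhc6* (0.982). For *Irf1* they were *Gpalpp1* (0.989), *H3f3a* (0.976) and *Cxcr4* (0.972), for *Irf2* *Ung* (0.974), *Repin1* (0.970) and *Kpna2* (0.966), and for *Irf3* *Akt1s1* (0.993), *Ankrd49* (0.990) and *Trim11* (0.988). *Akt1s1* lies 142227 bases from *Irf3*.

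The tested genes that flank the 7 tested members were compared as well, and 0 of 14 passed both limits, where 3.13% of all tested genes did. Cohorts did not overlap for *Scaf1* beside *Irf3*, *Deaf1* beside *Irf7* and *Ipo4* beside *Irf9*, all lower in *Hoxa9*/*IRX3*. Among all tested genes 21.6% were lower without overlap. *Tnpo3*, which shares 1045 bases with *Irf5* on the opposite strand, was at 1.42, 1.33, 1.35, 1.94, 1.53 and 1.32 RPKM (log2 fold change 0.16, adjusted p = 0.499). *Atp6v1f*, the tested gene on the other side of *Irf5*, was at 8.17, 8.23, 7.73, 9.73, 7.34 and 7.71 RPKM (0.03, adjusted p = 0.927). The fall of *Irf5* was thus not shared by its flanks. *Irf8* lies wholly inside *Gm20388* on the same strand (20337 shared bases), which was at 0.593, 0.497, 0.524, 0.377, 0.668 and 0.400 RPKM (-0.09, adjusted p = 0.747). *Gm20388* was thus highest in mouse 3.3 and lowest in mice 3.2 and 3.5, as *Irf8* was. *Rnf31*, which shares 123 bases with *Irf9* on the same strand, was at 2.33, 2.1998, 2.18, 1.79, 3.24 and 1.89 RPKM, and mouse 3.3 was highest as for *Irf9*. Whether reads of the shared bases were counted for both genes was not tested. *Mthfsd*, 334934 bases from *Irf8*, was at 1.23, 0.918, 0.695, 0.911, 0.938 and 0.468 RPKM, with mouse 3.3 inside the control range.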

How the data were processed

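RNA of KIT+Gr1+ AML cells from 6 mice (n = 3 per cohort, 1 library per mouse) was sequenced by the authors as strand-specific polyA libraries with paired ends of 75 bases, aligned to GRCm38 with Bowtie2 2.2.1 and handled with SAMtools 0.1.19. The authors deposited RPKM, per whole gene span including introns, and reads were recovered from the smallest steps between these values. This recovery is approximate: 65.0% of tested genes gave whole reads within 0.01 in every mouse, reads of other genes are rounded, and the totals need not equal the number of reads the authors aligned or kept. In this scale spans with long introns have low RPKM, 3 reads give about 0.0161 to 0.0198 RPKM for a gene of median span, a read on more than 1 gene may count more than once, and reads on near-identical genes may be lost. Whether the strand was used in counting is not stated in the sources used here.

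Here limma 3.58.1 in R 4.3.3 was run (lmFit, then eBayes that allows a trend of variance) on log2(RPKM + 0.5) of 9522 protein-coding genes above 0.5 RPKM in at least 1 mouse, with Benjamini-Hochberg adjustment over all of them. Both limits are an adjusted p under 0.05 and at least 2-fold. The added 0.5 shrinks the log2 fold change of low genes, so the ratio of mean RPKM is given for some of them. With 3 against 3 mice an exact test cannot fall below p = 0.1. The script was tested on simulated data. Tables, promoters and figures used Python 3.11.15, numpy 2.4.6, pandas 2.3.3 and matplotlib 3.10.9. Values on the scale of exon length are RPKM multiplied by span and divided by the length of all annotated exons.

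Items withheld for evaluation are not reported here. Members were taken by symbol, and the members and lists were chosen with earlier results of these data known. Genes named are the members, partners, from each other list those past both limits (at most the 5 largest each way), the most abundant gene, and *Spi1*, *Gfi1* and *Klf4*, plus the 3 genes closest in profile to each tested member. In every list, most abundant means the highest mean RPKM over the gene span. Other genes, such as *Csf1r*, *Mx1* and *Cxcl10*, were chosen after their values were seen. Alternatives were pseudocounts of 0.1 and 1, no filter, over 1 RPKM in at least 3 mice, scaling by median-of-ratios factors or by quantiles, eBayes without the trend, the criterion of the study (unadjusted p under 0.05 and a ratio of means over 2), and each mouse left out. Exon length and voom on recovered reads were added after the data were seen.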

Additional observations from a re-analysis of the deposited data

How the results depend on the processing

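With all 6 mice 298 protein-coding genes passed both limits, against 175 with no filter on low values, 664 under the criterion of the study and 552 on exon length. Leaving out 1 mouse at a time gave 61 to 409. Of the 111 values for the 7 tested IRF members under an alternative, 104 kept direction and side of the limits, 1 became a call (*Irf8* without mouse 3.3) and 6 changed sign. Of 985 values for named genes, members included, 884 were the same, 52 lost the call, 16 gained it and 33 changed sign. The cause of each difference was not tested.

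Counts past both limits with all mice, then the range with 1 mouse left out: IRF members 1, 1 to 2; IRF members without overlap 1, 1 to 2; IRF partners 0, 0 to 1; IRF activation 3, 0 to 4; interferon-stimulated 0, 0 to 3; IRF8 targets 3, 0 to 4; monocyte and macrophage markers 4, 1 to 4; dendritic cell and class II markers 2, 0 to 2; neutrophil markers 3, 1 to 4; B and plasma cell markers 1, 0 to 1; sort markers 1, 0 to 1. Counts of IRF activation genes (2 to 4), IRF8 targets (2 to 4), monocyte and macrophage markers (3 to 4), neutrophil markers (2 to 3) and dendritic cell and class II markers (2 to 3) differed within 1.5 times under some settings. By setting, the counts that moved by over 1.5 times were as follows. A pseudocount of 0.1 gave 1 interferon-stimulated gene. A pseudocount of 1 gave 1 dendritic cell and class II marker and 0 sort markers. With no filter on low values, IRF members without overlap were 2, dendritic cell and class II markers 1 and B and plasma cell markers 0. Over 1 RPKM in at least 3 mice, IRF partners were 1, dendritic cell and class II markers 1, B and plasma cell markers 2 and sort markers 0. Quantile normalization gave 1 IRF partner. Under the criterion of the study IRF partners were 2, IRF activation genes 5, interferon-stimulated genes 1 and B and plasma cell markers 2. On exon length IRF partners were 1, interferon-stimulated genes 1 and B and plasma cell markers 2. With voom on recovered reads interferon-stimulated genes were 1, B and plasma cell markers 2 and sort markers 0.

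Log2 fold changes that changed sign were all small and not called. Under median-of-ratios scaling and quantile normalization they were 0.0434 and 0.0381 for *Irf2*, 0.0491 and 0.0770 for *Ung*, 0.0277 and 0.0399 for *Repin1*, 0.0484 and 0.0730 for *Kpna2*, and 0.0058 and 0.0292 for *Cep55*. With 1 mouse left out at a time the ranges were -0.0380 to 0.0491 for *Irf2*, -0.305 to 0.0619 for *Irf3*, -0.0107 to 0.0366 for *Etv6*, -0.13 to 0.23 for *Stat2*, -0.83 to 0.20 for *Irf2bpl*, -0.0866 to 0.389 for *Cebpa*, -0.112 to 0.0874 for *Ung*, -0.23 to 0.16 for *Repin1*, -0.20 to 0.16 for *Kpna2*, -0.166 to 0.0164 for *Akt1s1*, -0.196 to 0.0160 for *Ankrd49*, -0.287 to 0.0887 for *Trim11*, -0.0168 to 0.190 for *Azin1* and -0.0083 to 0.0900 for *Zdhhc6*.

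Limits: 3 mice per cohort leave 95% intervals of several log2 units for *Irf7* and *Irf8*, and 1 mouse, 3.3, decides whether *Irf8* passes. At 7979246 to 9803621 reads per library, *Irf4* was too scarce to test. The scale over gene spans and the added 0.5 understate changes of low genes. Genes named that do not exceed 1 RPKM in 3 mice have no value under that filter, and *Rnase6* and *Irx3*, at 0 in all mice of 1 cohort, have no ratio of means under the criterion of the study. No paired analysis was possible because the mouse numbers of the cohorts name different mice. RNA of sorted bulk cells gives neither IRF protein nor its activation.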
